A study of Mus musculus with 8 samples.

Results

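Axon guidance genes encode cell surface receptors and ligands of the ephrin, semaphorin, Slit and netrin systems. They were picked from the deposited gene table by symbol alone: numbered members of the Epha, Ephb, Efna, Efnb, Plxna, Plxnb, Slit, Robo, Ntn and Nrp families, the lettered semaphorins, Plxnc1, Plxnd1 and Unc5a to Unc5d. The rule found 68 of 23224 genes, 35 ligands and 33 receptors, and 48 of them passed the filter on low counts and were tested. The 8 RNA-seq libraries, made from polyadenylated RNA of cultured mouse lung adenocarcinoma cells, fell into 4 groups of 2. All lines carried the genotype KrasG12/+;Trp53-/-, the controls included, and grew in DMEM with 10% serum. Tnonmet lines, derived from non-metastatic primary tumours, expressed an shRNA against luciferase (shControl), against Nkx2-1 (shNkx2-1), or against Nkx2-1, Foxa2 and Cdx2 together (the triple knockdown). Tmet lines were derived from metastatic primary tumours, and no shRNA is named for them, so the comparison of Tmet with shControl sets different tumours and not only different shRNA states side by side. The shRNAs came in retroviral and lentiviral vectors, and the sources used here do not give how many tumours, lines or clones each group stands for. No statement says that duplicates were separate cultures, so the spread behind each p-value may be technical.

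Ephrins are membrane-bound ligands whose Eph receptors are tyrosine kinases, and signals run both into the receptor cell and back into the ephrin cell at sites of contact. A-type ephrins are held by a lipid anchor and B-type ephrins span the membrane. Semaphorins signal through plexins, and most secreted class 3 semaphorins need a neuropilin as the ligand-binding co-receptor. Slits bind Robo receptors and netrins bind Dcc and Unc5 receptors. All 4 systems steer growing axons and vessels by acting on the actin cytoskeleton, and their members are also used by epithelia and carcinomas, where they act on cell sorting, migration and invasion.

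Levels are CPM, counts scaled to library size after TMM correction for composition, so they compare libraries for a given gene and not genes with each other. Each change is a log2 difference between group levels ± its SE. The adjusted p beside it comes from edgeR's quasi-likelihood test over 13318 genes, with a threshold of 0.05. Library totals were 14496995 to 21044835 estimated counts, so that 3 counts stood at 0.151 to 0.2 CPM. The shRNA targets were lower in their groups: Nkx2-1 measured 76.4 and 68.0 CPM with shControl, 37.7 and 44.8 with shNkx2-1, 38.1 and 34.0 under the triple knockdown, and 0.219 and 0.353 for Tmet. Cdx2 measured 9.41 and 6.80 CPM in the triple knockdown against 98.6 and 111 in shControl and 175 and 186 in shNkx2-1, and Foxa2 measured 34.1 and 28.2 against 56.8 and 55.1. The summed level of 6 epithelial markers was 6810 to 10217 CPM in the Tnonmet libraries and 2624 and 1437 in Tmet. Epcam was under 1 CPM in every library and Cdh1 at 3.17 and 3.33 CPM in Tmet. Most of the Tmet sum came from Krt8 (1311 and 777 CPM) and Krt18 (1135 and 538 CPM). Against shControl, 3 of the 5 tested epithelial markers fell in Tmet and none rose. Of 7 fibroblast markers, the sum was 4.67 to 20.1 CPM in Tnonmet and 239.6 and 800.3 in Tmet, nearly all from Col1a1 and Col1a2, with Lum at 0 counts everywhere and Thy1 and Postn at most at 0.151 CPM. The sum of 11 neuronal markers was 2.84 to 10.1 CPM in Tnonmet and 364 and 264 in Tmet, mostly Stmn2 (339.8 and 235), with Rbfox3 at 0 counts everywhere. Against shControl, all 4 tested neuronal markers and all 3 tested fibroblast markers rose in Tmet, where 29.2% of all tested genes did. In the triple knockdown 2 of the 4 and 1 of the 3 rose, beside 12% of all tested genes. Endothelial markers summed to at most 1.33 CPM and leukocyte markers to at most 4.59 CPM in any library. The part of the fibroblast and neuronal markers in the Tmet results below was not tested.

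The neuropilin gene Nrp2 and Sema5a had the largest called rises among guidance genes in the triple knockdown and Sema3d the largest fall, and all 3 passed in the same direction in Tmet. Nrp2, a co-receptor for class 3 semaphorins and for VEGF-C, stood at 1.27 and 1.65 CPM with shControl, 3.04 and 2.87 with shNkx2-1, 18 and 23.7 under the triple knockdown, and 329.6 and 307 for Tmet. Each group lay wholly above the one before it in this order, and the rise passed in the triple knockdown (log2 change 3.81 ± 0.20, adjusted p = 3.11e-05) and in Tmet (log2 change 7.75 ± 0.21, adjusted p = 2.53e-07) against shControl. Sema5a, a membrane semaphorin with thrombospondin repeats, stood at 0.8 and 0.774 CPM with shControl, 2.86 and 1.8 with shNkx2-1, 10.9 and 11.3 under the triple knockdown, and 106 and 73.6 for Tmet. Its groups had the same order without overlap, with log2 change 3.81 ± 0.31, adjusted p = 0.000181 in the triple knockdown and log2 change 6.82 ± 0.31, adjusted p = 1.63e-06 in Tmet. Sema3d, a secreted class 3 semaphorin, stood at 31.1 and 24.3 CPM with shControl, 11.9 and 15.3 with shNkx2-1, 0.362 and 0 under the triple knockdown, and 0.0547 and 0.101 for Tmet. It fell in the triple knockdown (log2 change -7.17 ± 0.56, adjusted p = 0.000155), where it had 6 counts and 0 counts, and in Tmet, where the 3 counts of both libraries gave a ratio of shControl to Tmet of 347 (95% exact counting interval 118 to 1690). Sema3d passed the filter on low counts through the shControl and shNkx2-1 libraries alone, so its falls from these groups are not independent of the filter. Without triple knockdown replicate 2 the Sema3d change was -6.23. Without replicate 1 it was -11.92, a fitted value against a library with 0 counts that is no bound. Libraries were made from whole cultures, so fewer cells of a kind and less RNA per cell cannot be told apart, here or for any gene below. Both comparisons use the same shControl libraries, so their values are set side by side and no overlap between them is read.

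The sequence before the start of the genes at either end of the changes in the triple knockdown is shown so that its base composition can be read beside them. For the 2 largest rises and the 2 largest falls among members with an entry, the 250 bases before the RefSeq gene start are given 5′ to 3′ along the gene (RefSeq, GRCm38.p6, which is not the build named for the counts), with CG dinucleotides in capitals.
Nrp2 (rose; chr1:62703067-62703316, plus strand): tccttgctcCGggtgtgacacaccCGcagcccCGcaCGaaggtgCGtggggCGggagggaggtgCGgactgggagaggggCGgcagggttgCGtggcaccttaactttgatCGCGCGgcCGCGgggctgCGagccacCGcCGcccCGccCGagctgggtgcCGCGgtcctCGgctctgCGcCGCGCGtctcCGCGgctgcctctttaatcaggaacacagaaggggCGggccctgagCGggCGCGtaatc
Sema5a (rose; chr15:32244563-32244812, plus strand): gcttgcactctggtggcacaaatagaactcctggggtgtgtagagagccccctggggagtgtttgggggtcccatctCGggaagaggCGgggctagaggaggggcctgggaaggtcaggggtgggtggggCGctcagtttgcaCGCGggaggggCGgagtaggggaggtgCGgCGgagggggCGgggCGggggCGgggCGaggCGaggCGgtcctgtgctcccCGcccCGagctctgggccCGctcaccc
Sema3d (fell; chr5:12382916-12383165, plus strand): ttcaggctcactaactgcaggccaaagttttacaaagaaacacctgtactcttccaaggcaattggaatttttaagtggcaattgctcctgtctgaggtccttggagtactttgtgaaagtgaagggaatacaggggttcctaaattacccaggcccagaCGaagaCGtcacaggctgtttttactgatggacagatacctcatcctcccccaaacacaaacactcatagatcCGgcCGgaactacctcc
Ntn5 (fell; chr7:45683772-45684021, plus strand): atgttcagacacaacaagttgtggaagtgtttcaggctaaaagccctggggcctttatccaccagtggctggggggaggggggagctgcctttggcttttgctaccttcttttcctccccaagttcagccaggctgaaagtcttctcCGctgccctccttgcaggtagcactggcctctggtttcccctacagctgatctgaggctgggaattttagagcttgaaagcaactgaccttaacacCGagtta
The bases just after the start lay in a GENCODE transcript of the gene, in the same orientation, for Nrp2, Sema5a and Ntn5 and not for Sema3d, so the Sema3d start is less well placed; over all members 62 of 75 entries passed this check. The Nrp2 and Sema5a windows held 32 and 17 CG dinucleotides and 72.4% and 72% G or C. Those of Sema3d and Ntn5 held 4 and 2 CG dinucleotides and 46.8% and 52.8% G or C. Across 27025 genes the median was 6 CG dinucleotides, with quartiles of 2 and 17, and across the 59 members with an entry it was 17. Counted in the same way, the 10 members with an entry that rose in the triple knockdown had a median of 18.5 and a range of 2 to 32, and the 10 that fell had a median of 11 and a range of 2 to 26, so the ranges overlapped. A gene with several entries was counted by its entry with the most CG dinucleotides, and as holding a motif where any entry did. On both strands of the 250 bases the forkhead letters TGTTTAC were found in 0 of the 59 members and in 3.54% of all genes, the Nkx2-1 letters CACTTGA in 2 members (3.39%) and 3.16% of all genes, and the Cdx2 letters TTTATGG in 0 members and 2.83% of all genes. The motifs were counted separately, and none of the 20 members called in the triple knockdown that had an entry held any of them in this window. At the shares of all genes above, few of 20 genes would hold one, so nothing is read from this absence.

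In the triple knockdown 12 of the 48 tested members rose against shControl and 10 fell. This is 25% and 20.8%, against 12% and 12.4% of all tested genes (24.4% either way). Without either Tmet library, or without both, 16 members fell, where 20% to 21.5% of all genes tested did. In a fit of the 4 libraries compared 17 fell, beside 22.7% of all genes, so the background rose with the count. In Tmet 11 rose and 24 fell against shControl, or 22.9% and 50%, where 29.2% of all tested genes rose and 28.1% fell (57.3% either way). The median change of the tested members was 0.01 in the triple knockdown and -0.62 in Tmet, with 0.00 and 0.02 over all tested genes. With shNkx2-1 against shControl 3 members rose and 1 fell, or 6.25% and 2.08%, against 2.17% and 1.38% of all tested genes (3.55% either way). Of the tested members 40 passed the filter in all 8 libraries. Slit3 passed it through Tmet alone, and Sema3d and Ntn5 through the shControl and shNkx2-1 libraries alone. For Sema4f both libraries passed in Tmet only, and for Epha7 and Ephb2 both passed in other groups but not in Tmet. The shares therefore describe only genes that passed. By group mean, Tmet was the lowest group for 28 tested members and the highest for 11, and the triple knockdown the lowest for 10 and the highest for 16.

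**Figure D1:**
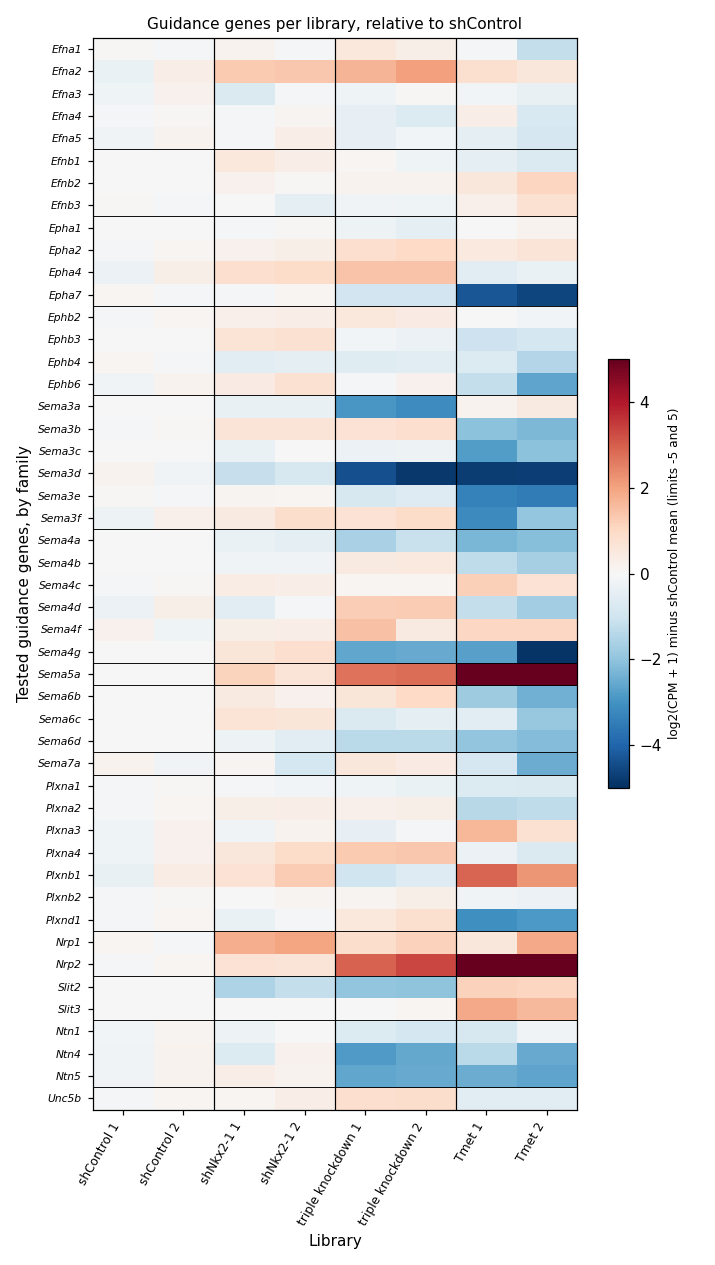
Level of each tested guidance gene (rows, grouped by family with lines between families) in each of the 8 libraries (columns), as log2(CPM + 1) minus the mean of the 2 shControl libraries; red is higher and blue lower, with colours capped at -5 and 5. Nrp2 and Sema5a are deep red in both Tmet libraries, Epha7 and Sema3d deep blue, and the shNkx2-1 columns are the palest after shControl.

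Among the ephrins 8 of 8 genes were tested. In the triple knockdown 1 rose (12.5%) and none fell, where 12% and 12.4% of all tested genes did. In Tmet 1 rose and 2 fell (12.5% and 25%), where 29.2% and 28.1% of all tested genes did. Efnb2, the transmembrane ephrin of arteries and lymphatics, stood at 148 and 149 CPM with shControl, 174 and 155 with shNkx2-1, 169 and 169 under the triple knockdown, and 222 and 315 for Tmet. Both Tmet libraries lay above the 6 others, and the rise passed in Tmet (log2 change 0.85 ± 0.16, adjusted p = 0.0025) and not in the triple knockdown (log2 change 0.19 ± 0.16, adjusted p = 0.441). Efnb1, a transmembrane ephrin of epithelial boundaries, stood at 48.5 and 48.2 CPM with shControl, 69.3 and 61 with shNkx2-1, 51.8 and 41.7 under the triple knockdown, and 34 and 29.2 for Tmet. Tmet was the lowest group and fell below shControl (log2 change -0.62 ± 0.15, adjusted p = 0.00874), while the triple knockdown overlapped it (log2 change -0.05 ± 0.15, adjusted p = 0.849). The lipid-anchored Efna5 stood at 32.9 and 41.6 CPM with shControl, 35.8 and 47.2 with shNkx2-1, 27.4 and 33.5 under the triple knockdown, and 26.4 and 20.01 for Tmet. By mean, Tmet was lowest and shNkx2-1 highest, and 2 of the 6 pairs of groups overlapped. It fell in Tmet (log2 change -0.69 ± 0.21, adjusted p = 0.0244) and did not pass in the triple knockdown (log2 change -0.29 ± 0.21, adjusted p = 0.361). Efna1, a ligand of EphA2, stood at 26.1 and 23.5 CPM with shControl, 28.1 and 23.7 with shNkx2-1, 36.5 and 30.1 under the triple knockdown, and 22.8 and 10.2 for Tmet. The triple knockdown had the highest mean and Tmet the lowest, and only shControl and shNkx2-1 overlapped. Its Tmet libraries differed by more than its other groups did, and neither comparison with shControl passed (log2 change 0.43 ± 0.32, adjusted p = 0.38 and -0.59 ± 0.33, adjusted p = 0.157).

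Of the remaining ephrins, Efna2 stood at 0.6 and 1.6 CPM with shControl, 4.01 and 4.17 with shNkx2-1, 5.61 and 7.44 under the triple knockdown, and 2.52 and 2.02 for Tmet. The highest mean was that of the triple knockdown and the lowest that of shControl, while no groups overlapped. It rose in the triple knockdown (log2 change 2.52 ± 0.42, adjusted p = 0.00415). Without shControl replicate 2 this rise was 3.42. In Tmet it lay above shControl without passing (log2 change 0.998 ± 0.43, adjusted p = 0.0788). Efna3 and Efnb3 stayed at or below 5.14 CPM in every library and Efna4 between 8.37 and 18.6 CPM, and none of them passed against shControl. The fall of Efna5 in Tmet was lost without shControl replicate 2 or Tmet replicate 2 (adjusted p up to 0.151), and in a fit of the 4 libraries compared (adjusted p = 0.0512).

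Of 14 Eph receptor genes 8 were tested. In the triple knockdown 2 rose and 1 fell (25% and 12.5%), where 12% and 12.4% of all tested genes did. In Tmet 1 rose and 4 fell (12.5% and 50%), where 29.2% and 28.1% of all tested genes did. Epha2, a receptor often raised in carcinomas and a target of RAS signalling, stood at 285 and 322 CPM with shControl, 353 and 372 with shNkx2-1, 538 and 607 under the triple knockdown, and 423 and 469.5 for Tmet. All groups were separate, with the triple knockdown highest, and Epha2 rose there (log2 change 0.91 ± 0.12, adjusted p = 0.00131) and in Tmet (log2 change 0.56 ± 0.12, adjusted p = 0.00409). Epha4, a receptor that binds ephrins of both types, stood at 20.9 and 31.5 CPM with shControl, 46.5 and 49.7 with shNkx2-1, 70.5 and 70.8 under the triple knockdown, and 17.2 and 20.2 for Tmet. It rose in the triple knockdown (log2 change 1.43 ± 0.19, adjusted p = 0.00176) and was at the lowest levels in Tmet (log2 change -0.49 ± 0.20, adjusted p = 0.0625). Epha7, another receptor for A-type ephrins, stood at 28.7 and 25.2 CPM with shControl, 24.9 and 29.2 with shNkx2-1, 13.4 and 13.3 under the triple knockdown, and 0.437 and 0.151 for Tmet. Means ran from Tmet at the bottom to shNkx2-1 at the top, and only shControl and shNkx2-1 overlapped. It fell in the triple knockdown (log2 change -1.01 ± 0.21, adjusted p = 0.0111), and in Tmet it was left with 8 and 3 counts (log2 change -6.51 ± 0.32, adjusted p = 2.47e-06).

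Of the 4 tested EphB receptors 3 fell in Tmet, where 28.1% of all tested genes fell. Ephb4, the receptor that pairs with ephrin-B2 at artery and vein borders, stood at 222 and 197 CPM with shControl, 146 and 148 with shNkx2-1, 139 and 139 under the triple knockdown, and 129 and 74.9 for Tmet. By mean, Tmet was lowest and shControl highest, and no groups overlapped. It fell in Tmet (log2 change -1.04 ± 0.22, adjusted p = 0.00473) and lay below shControl in the triple knockdown without passing (log2 change -0.59 ± 0.22, adjusted p = 0.0896). Ephb3, a receptor of intestinal crypts, stood at 23.8 and 23.8 CPM with shControl, 38.5 and 41.3 with shNkx2-1, 21.3 and 19.3 under the triple knockdown, and 11.2 and 12.7 for Tmet. It was highest in shNkx2-1 and rose there (log2 change 0.75 ± 0.13, adjusted p = 0.03), did not pass in the triple knockdown (log2 change -0.23 ± 0.14, adjusted p = 0.269) and fell in Tmet (log2 change -0.999 ± 0.14, adjusted p = 0.000562). Ephb6, a receptor whose kinase domain is inactive, stood at 30.1 and 37.9 CPM with shControl, 45.7 and 57.7 with shNkx2-1, 32.3 and 39.6 under the triple knockdown, and 14.3 and 4.59 for Tmet. It fell in Tmet (log2 change -1.86 ± 0.43, adjusted p = 0.00697), whose libraries differed over 2-fold, and its triple knockdown libraries overlapped shControl (log2 change 0.08 ± 0.41, adjusted p = 0.919). Ephb2 stayed at or below 1.15 CPM and Epha1 at or below 1.16 CPM, and neither passed against shControl. Epha1 shares 236 exon bases with Zyx on the opposite strand in GENCODE, and the strand setting of the counting is not given, so its level is uncertain. Without Tmet replicate 1 the change in Tmet was -2.90 for Ephb6 and -7.41 for Epha7, and without replicate 2 it was -1.26 for Ephb6. The fall of Epha7 in the triple knockdown was lost when any 1 of the 4 shControl and triple knockdown libraries was left out (adjusted p up to 0.101).

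**Figure D2:**
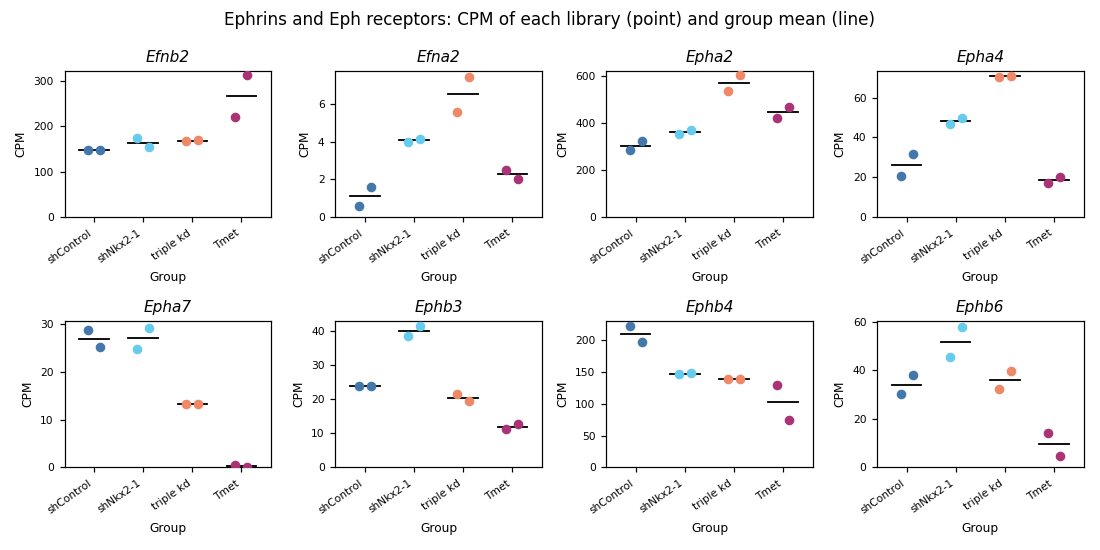
CPM (linear axis from 0) of 8 ephrin and Eph receptor genes in the 4 groups; each point is a library and each line the mean of its group. Epha2 and Epha4 are highest in the triple knockdown, Epha7 is near 0 in Tmet, and Efnb2 is highest in Tmet at 222 and 315 CPM.

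Semaphorins were the largest family, with 17 of 20 genes tested. Under the triple knockdown 5 rose and 6 fell (29.4% and 35.3%), where 12% and 12.4% of all tested genes did. In Tmet 3 rose and 12 fell (17.6% and 70.6%), where 29.2% and 28.1% of all tested genes did. The secreted class 3 members did not move together. Sema3a, which repels axons through Nrp1 and A-type plexins, stood at 70.6 and 73.8 CPM with shControl, 54.9 and 55.9 with shNkx2-1, 8.68 and 7.24 under the triple knockdown, and 82.5 and 99.3 for Tmet. Tmet had the highest mean and the triple knockdown the lowest, and no groups overlapped. It fell in the triple knockdown (log2 change -3.18 ± 0.15, adjusted p = 2.1e-05), while the Tmet libraries lay above those of shControl without passing (log2 change 0.33 ± 0.14, adjusted p = 0.0673). Sema3e, which binds plexin D1 without a neuropilin, stood at 124 and 116 CPM with shControl, 131 and 127 with shNkx2-1, 69.2 and 77.2 under the triple knockdown, and 10.7 and 9.73 for Tmet. The highest mean was that of shNkx2-1 and the lowest that of Tmet, while no groups overlapped. Sema3e fell under the triple knockdown (log2 change -0.71 ± 0.11, adjusted p = 0.00327) and further in Tmet (log2 change -3.55 ± 0.13, adjusted p = 5.37e-07). Sema3c stood at 505 and 494 CPM with shControl, 402 and 487 with shNkx2-1, 405 and 419.9 under the triple knockdown, and 71.4 and 120.4 for Tmet. Means ran from Tmet at the bottom to shControl at the top, and only the triple knockdown and shNkx2-1 overlapped. Only its Tmet libraries were far from shControl, and the fall passed there (log2 change -2.38 ± 0.23, adjusted p = 8.1e-05) and not in the triple knockdown (log2 change -0.28 ± 0.22, adjusted p = 0.4).

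Sema3b and Sema3f, described as tumour suppressor genes in human lung cancer, were lowest in Tmet. Sema3b stood at 29.7 and 31.6 CPM with shControl, 47.9 and 48.3 with shNkx2-1, 51.5 and 55.9 under the triple knockdown, and 6.67 and 5.75 for Tmet. By mean, Tmet was lowest and the triple knockdown highest, and no groups overlapped. Rises passed with shNkx2-1 (log2 change 0.65 ± 0.13, adjusted p = 0.036) and under the triple knockdown (log2 change 0.81 ± 0.13, adjusted p = 0.00327). Sema3b fell in Tmet (log2 change -2.30 ± 0.14, adjusted p = 6.71e-06). Sema3f, a ligand of Nrp2, stood at 10.9 and 16.4 CPM with shControl, 18.6 and 25.6 with shNkx2-1, 23 and 26.3 under the triple knockdown, and 0.601 and 2.77 for Tmet. The triple knockdown had the highest mean and Tmet the lowest, and only shNkx2-1 and the triple knockdown overlapped. It fell in Tmet (log2 change -2.997 ± 0.52, adjusted p = 0.00166) and lay higher in the triple knockdown without passing (log2 change 0.85 ± 0.44, adjusted p = 0.202). Its Tmet libraries differed 4.61-fold, and the change in Tmet was -2.31 without Tmet replicate 1 and -4.50 without replicate 2. On the log2 scale Sema3d, given above, had its largest step between shNkx2-1 and the triple knockdown.

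The membrane semaphorins of class 4 split in the triple knockdown. Sema4d, the ligand of plexin B1, stood at 7.6 and 12 CPM with shControl, 6.38 and 9.01 with shNkx2-1, 23.9 and 24.5 under the triple knockdown, and 3.66 and 2.17 for Tmet. The highest mean was that of the triple knockdown and the lowest that of Tmet, while only shNkx2-1 and shControl overlapped. A rise passed under the triple knockdown (log2 change 1.30 ± 0.30, adjusted p = 0.0174). Sema4d fell in Tmet (log2 change -1.76 ± 0.33, adjusted p = 0.00249). Sema4g stood at 116 and 117 CPM with shControl, 178 and 212 with shNkx2-1, 18.3 and 19.7 under the triple knockdown, and 16.8 and 2.92 for Tmet. Means ran from Tmet at the bottom to shNkx2-1 at the top, and no groups overlapped. A fall passed under the triple knockdown (log2 change -2.62 ± 0.57, adjusted p = 0.0131). Sema4g fell in Tmet (log2 change -3.57 ± 0.60, adjusted p = 0.00143), whose libraries differed 5.76-fold. The change in Tmet was -5.32 without Tmet replicate 1 and -2.80 without replicate 2. Sema4b stood at 155 and 153 CPM with shControl, 135 and 137 with shNkx2-1, 209 and 219 under the triple knockdown, and 62.5 and 48 for Tmet. By mean, Tmet was lowest and the triple knockdown highest, and no groups overlapped. The triple knockdown libraries were called higher (log2 change 0.47 ± 0.13, adjusted p = 0.0336). Sema4b fell in Tmet (log2 change -1.48 ± 0.13, adjusted p = 5.85e-05).

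Sema4a stood at 10.5 and 10.4 CPM with shControl, 8.2 and 7.21 with shNkx2-1, 2.77 and 4.36 under the triple knockdown, and 1.37 and 1.61 for Tmet. The shControl group had the highest mean and Tmet the lowest, and no groups overlapped. It fell in both the triple knockdown (log2 change -1.55 ± 0.26, adjusted p = 0.00444) and Tmet (log2 change -2.80 ± 0.28, adjusted p = 0.0001). Sema4c, a ligand of plexin B2, stood at 16.6 and 18.1 CPM with shControl, 23 and 21.8 with shNkx2-1, 18.6 and 18.6 under the triple knockdown, and 41.1 and 29.1 for Tmet. Tmet was the highest group and rose (log2 change 1.01 ± 0.18, adjusted p = 0.00191), and the triple knockdown did not pass (log2 change 0.10 ± 0.18, adjusted p = 0.737). Sema4f reached at most 2.17 CPM and rose in Tmet (log2 change 3.13 ± 0.99, adjusted p = 0.027), a call that ended without shControl replicate 2 or either shNkx2-1 library (adjusted p up to 0.133). Its log2 change was 7.59 without shControl replicate 1, a fitted value against a library at 0 that is no bound. Without shControl replicate 2 it was 1.99. Tmet was the only group with both Sema4f libraries past the filter, so this rise is not independent of the filter. The calls in the triple knockdown were lost for Sema4b without either shControl library, either shNkx2-1 library or either triple knockdown library (adjusted p up to 0.184), Sema4d without shControl replicate 1 or either triple knockdown library (adjusted p up to 0.139) and Sema4g without either shControl library or either triple knockdown library (adjusted p up to 0.103).

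In class 6, Sema6d, a ligand of plexin A1, stood at 83.1 and 79.1 CPM with shControl, 67.9 and 56.6 with shNkx2-1, 31.3 and 31 under the triple knockdown, and 19.8 and 17.4 for Tmet. The groups did not overlap, and it fell in the triple knockdown (log2 change -1.38 ± 0.14, adjusted p = 0.000409) and in Tmet (log2 change -2.12 ± 0.14, adjusted p = 1.09e-05). Sema6b, a ligand of A-type plexins, stood at 11.9 and 12.2 CPM with shControl, 17 and 14.1 with shNkx2-1, 19.1 and 24.8 under the triple knockdown, and 2.79 and 1.46 for Tmet. The highest mean was that of the triple knockdown and the lowest that of Tmet, while no groups overlapped. Its level rose under the triple knockdown (log2 change 0.86 ± 0.26, adjusted p = 0.0483). Sema6b fell in Tmet (log2 change -2.51 ± 0.30, adjusted p = 0.000258). Sema6c lay between 0.857 and 9.97 CPM and did not pass in either comparison. Sema7a, a lipid-anchored semaphorin that binds integrins and plexin C1, stood at 20.01 and 15.8 CPM with shControl, 19.4 and 9.13 with shNkx2-1, 26.9 and 24.2 under the triple knockdown, and 9.51 and 2.37 for Tmet. Means ran from Tmet at the bottom to the triple knockdown at the top, and 2 of the 6 pairs of groups overlapped. It fell in Tmet (log2 change -1.60 ± 0.57, adjusted p = 0.0416), did not pass in the triple knockdown (log2 change 0.51 ± 0.54, adjusted p = 0.532), and had duplicates over 2-fold apart in shNkx2-1 and in Tmet. The Sema7a change in Tmet was -2.91 without Tmet replicate 1 and -0.91 without replicate 2. The fall of Sema7a was lost without either shControl library, either triple knockdown library or Tmet replicate 2 (adjusted p up to 0.151), and in a fit of the 4 libraries compared (adjusted p = 0.0848). The rise of Sema6b was lost when any 1 Tnonmet library was left out (adjusted p up to 0.266).

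Plexins, the semaphorin receptors, had 9 genes with 7 tested. Under the triple knockdown 2 rose (28.6%) and none fell, where 12% and 12.4% of all tested genes did. In Tmet 2 rose and 3 fell (28.6% and 42.9%), where 29.2% and 28.1% of all tested genes did. Plxnd1, the receptor of Sema3e, stood at 105 and 119 CPM with shControl, 88.8 and 104 with shNkx2-1, 161 and 197 under the triple knockdown, and 12.5 and 14.2 for Tmet. By mean, Tmet was lowest and the triple knockdown highest, and no groups overlapped. Under the triple knockdown it rose (log2 change 0.67 ± 0.15, adjusted p = 0.0128). Plxnd1 fell in Tmet (log2 change -3.07 ± 0.16, adjusted p = 3.34e-06), where Sema3e was also at its lowest. The pair went opposite ways under the triple knockdown, where Plxnd1 was highest and Sema3e fell. Plxnb1, the receptor of Sema4d, stood at 1.8 and 3.77 CPM with shControl, 5.1 and 7.77 with shNkx2-1, 0.844 and 1.35 under the triple knockdown, and 26.7 and 16 for Tmet. It was lowest in the triple knockdown, where Sema4d was highest (log2 change -1.37 ± 0.50, adjusted p = 0.0855), and rose in Tmet, where Sema4d was lowest (log2 change 2.91 ± 0.42, adjusted p = 0.000701). Plxna4, a receptor for Sema3a and class 6 semaphorins, stood at 12.1 and 16.3 CPM with shControl, 21.3 and 27.6 with shNkx2-1, 35.8 and 37 under the triple knockdown, and 11.2 and 8.06 for Tmet. The triple knockdown had the highest mean and Tmet the lowest, and no groups overlapped. It rose in the triple knockdown (log2 change 1.36 ± 0.22, adjusted p = 0.00399) and did not pass in Tmet (log2 change -0.57 ± 0.23, adjusted p = 0.0636). Without shControl replicate 2 the Plxnb1 change in Tmet was 3.54. The rise of Plxnd1 was lost without either shControl library or triple knockdown replicate 2 (adjusted p up to 0.119).

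The other A-type plexins, partners of neuropilins in class 3 signalling, went different ways in Tmet. Plxna1 stood at 452 and 503 CPM with shControl, 458 and 439 with shNkx2-1, 408 and 376 under the triple knockdown, and 299 and 285 for Tmet. The highest mean was that of shControl and the lowest that of Tmet, while only shNkx2-1 and shControl overlapped. In GENCODE it shares exon bases with an antisense gene, as Plxna4, Plxnb1, Efna3 and Efna4 do. It fell in Tmet (log2 change -0.71 ± 0.10, adjusted p = 0.000698) and did not pass in the triple knockdown (log2 change -0.28 ± 0.10, adjusted p = 0.0826). Plxna2 stood at 114 and 131 CPM with shControl, 149 and 153 with shNkx2-1, 145 and 149.7 under the triple knockdown, and 46.5 and 50.3 for Tmet. Means ran from Tmet at the bottom to shNkx2-1 at the top, and only the triple knockdown and shNkx2-1 overlapped. It too fell in Tmet (log2 change -1.34 ± 0.11, adjusted p = 3.61e-05) and did not pass in the triple knockdown (log2 change 0.27 ± 0.11, adjusted p = 0.112). Plxna3 stood at 24.7 and 32.9 CPM with shControl, 25 and 31.9 with shNkx2-1, 21.3 and 27.1 under the triple knockdown, and 92.1 and 48.4 for Tmet. By mean, the triple knockdown was lowest and Tmet highest, and 3 of the 6 pairs of groups overlapped. It rose in Tmet (log2 change 1.28 ± 0.31, adjusted p = 0.00789) and did not pass in the triple knockdown (log2 change -0.25 ± 0.31, adjusted p = 0.593). Leaving out shControl replicate 1 ended the call (adjusted p = 0.0712), and leaving out Tmet replicate 1 gave a log2 change of 0.74. Plxnb2 stood at 658 and 696 CPM with shControl, 660.3 and 749.7 with shNkx2-1, 739 and 825 under the triple knockdown, and 592 and 548 for Tmet. The triple knockdown had the highest mean and Tmet the lowest, and 2 of the 6 pairs of groups overlapped. It passed in neither comparison with shControl (log2 change 0.21 ± 0.11, adjusted p = 0.225 and -0.25 ± 0.11, adjusted p = 0.0919).

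Nrp1, the co-receptor of Sema3a and of VEGF-A, did not follow the stepwise order of Nrp2. It stood at 24.8 and 21.5 CPM with shControl, 84.6 and 94.7 with shNkx2-1, 43.4 and 53 under the triple knockdown, and 35 and 89.4 for Tmet. Every other library lay above both shControl libraries, shNkx2-1 had the highest mean, and the Tmet duplicates differed over 2-fold and overlapped shNkx2-1. The rise passed with shNkx2-1 (log2 change 1.96 ± 0.38, adjusted p = 0.0355) and for Tmet (log2 change 1.43 ± 0.37, adjusted p = 0.0119) and not under the triple knockdown (log2 change 1.06 ± 0.37, adjusted p = 0.0767). The call in Tmet was lost without either shControl library (adjusted p up to 0.0792), and its log2 change was 0.60 without Tmet replicate 2.

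**Figure D3:**
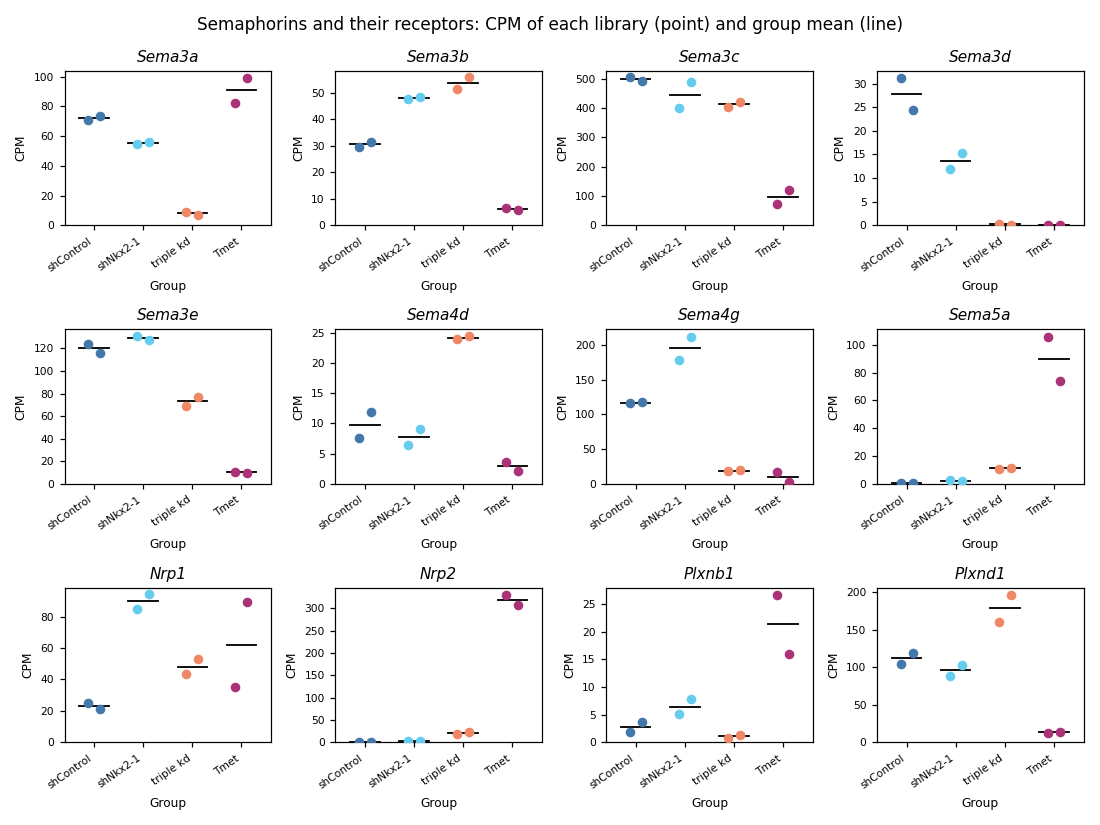
CPM (linear axis from 0) of 12 semaphorin, neuropilin and plexin genes in the 4 groups; each point is a library and each line the mean of its group. Nrp2 and Sema5a climb from group to group to 330 and 307 CPM and to 106 and 73.6 CPM in Tmet. Sema3a is lowest in the triple knockdown. Sema3e and Plxnd1 are both lowest in Tmet, while in the triple knockdown Plxnd1 is highest and Sema3e is below shControl.

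Of the Slit and Robo genes only Slit2 and Slit3 were tested, and no Robo gene exceeded 3 counts in any library. Slit2, a secreted ligand of Robo receptors, stood at 58.7 and 56.3 CPM with shControl, 19.3 and 25 with shNkx2-1, 14 and 13.5 under the triple knockdown, and 129 and 121 for Tmet. The groups did not overlap: falls passed with shNkx2-1 (log2 change -1.38 ± 0.15, adjusted p = 0.00593) and under the triple knockdown (log2 change -2.07 ± 0.15, adjusted p = 0.000119). In Tmet the gene rose (log2 change 1.12 ± 0.14, adjusted p = 0.000341). Slit3 had 0 counts in all shControl and shNkx2-1 libraries, 0 and 1 under the triple knockdown, and 49 and 42 for Tmet, at 2.68 and 2.12 CPM. Against the floor of 3 counts per library this was at least 13.5-fold higher than in shControl. Slit3 passed the filter through Tmet alone, so its rise is not independent of the filter. Robo3 and Robo4 had 0 counts in all libraries, and Robo1 and Robo2 had 7 and 2 counts over all 8. At this depth Robo RNA was therefore at or under the level of 3 counts, 0.151 to 0.2 CPM, in every library.

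Netrins and their receptors had 8 genes with 4 tested. In the triple knockdown 1 rose and 2 fell (25% and 50%), where 12% and 12.4% of all tested genes did. In Tmet 3 fell (75%) and none rose, where 28.1% of all tested genes fell and 29.2% rose. Ntn4, a netrin of basement membranes, stood at 24.7 and 31.1 CPM with shControl, 16.7 and 31.9 with shNkx2-1, 3.07 and 3.85 under the triple knockdown, and 10.2 and 3.98 for Tmet. The highest mean was that of shControl and the lowest that of the triple knockdown, while only shNkx2-1 and shControl overlapped. Its level fell under the triple knockdown (log2 change -3.01 ± 0.48, adjusted p = 0.00366). Ntn4 fell in Tmet (log2 change -1.98 ± 0.45, adjusted p = 0.00617). Ntn5, a small netrin-related gene, stood at 4.93 and 6.71 CPM with shControl, 7.41 and 6.65 with shNkx2-1, 0.121 and 0.192 under the triple knockdown, and 0.219 and 0.101 for Tmet. Means ran from the triple knockdown at the bottom to shNkx2-1 at the top, and 2 of the 6 pairs of groups overlapped. Under the triple knockdown it fell (log2 change -5.17 ± 0.44, adjusted p = 0.000209). Ntn5 fell in Tmet (log2 change -5.15 ± 0.42, adjusted p = 3.46e-05). It had 2 and 3 counts under the triple knockdown and 4 and 2 in Tmet. Ntn5 passed the filter through the shControl and shNkx2-1 libraries alone, so its falls from these groups are not independent of the filter. Without Tmet replicate 1 the changes in Tmet were -2.81 for Ntn4 and -5.76 for Ntn5. Ntn5 shares 519 exon bases with Sec1 on the opposite strand in GENCODE, so without the strand setting reads of the pair cannot be told apart. Sec1 measured 12.5 and 16.7 CPM with shControl, 13.9 and 17.4 with shNkx2-1, 1.57 and 3.46 under the triple knockdown, and 1.15 and 1.36 for Tmet.

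Unc5b, the netrin receptor of vessel tip cells, stood at 214 and 250.1 CPM with shControl, 249.5 and 292 with shNkx2-1, 414 and 427 under the triple knockdown, and 162 and 160.2 for Tmet. The level under the triple knockdown rose (log2 change 0.86 ± 0.12, adjusted p = 0.00195). Unc5b fell in Tmet (log2 change -0.53 ± 0.12, adjusted p = 0.00608), and only shControl and shNkx2-1 overlapped. Ntn1, a netrin that binds Unc5b and Dcc, stood at 3.07 and 3.92 CPM with shControl, 2.8 and 3.49 with shNkx2-1, 1.81 and 1.41 under the triple knockdown, and 1.59 and 2.97 for Tmet. By mean, the triple knockdown was lowest and shControl highest, and 3 of the 6 pairs of groups overlapped. It passed in neither comparison (log2 change -1.12 ± 0.38, adjusted p = 0.0676 and -0.61 ± 0.36, adjusted p = 0.182). Unc5a, Unc5c and Unc5d had 1, 2 and 7 counts over the 8 libraries. Together, 20 members were not tested: 6 Eph receptors (Epha3, Epha5, Epha6, Epha8, Epha10, Ephb1), Sema3g, Sema5b, Sema6a, Plxnb3, Plxnc1, Slit1, Robo1 to Robo4, Ntn3, Unc5a, Unc5c and Unc5d. The highest value among them was 18 counts or 0.984 CPM, for Epha5 in Tmet, and 3 of them had 0 counts in every library.

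**Figure D4:**
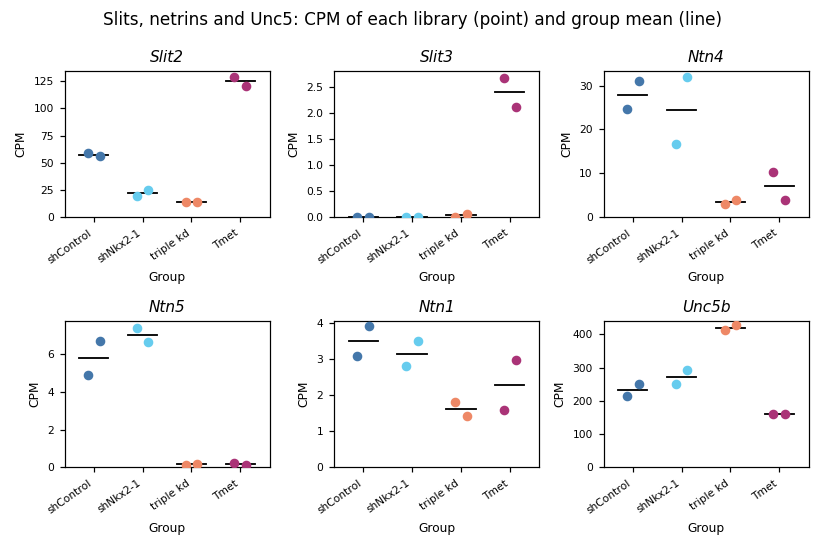
CPM (linear axis from 0) of Slit2, Slit3, Ntn1, Ntn4, Ntn5 and Unc5b in the 4 groups; each point is a library and each line the mean of its group. Slit2 is lowest in the triple knockdown and highest in Tmet, Ntn4 and Ntn5 are low in both, and Slit3 is above 1 CPM only in Tmet.

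With the Nkx2-1 shRNA alone, Ephb3, Nrp1 and Sema3b rose against shControl and Slit2 fell, out of 48 tested members. Each call was lost in at least 2 of the 8 fits that left out 1 library. Those of Ephb3, Nrp1 and Sema3b were lost when any 1 Tnonmet library was left out (adjusted p up to 0.262, 0.257 and 0.322), and that of Slit2 without shControl replicate 1 or shNkx2-1 replicate 1 (adjusted p up to 0.0726). Without shControl replicate 1 edgeR's test called 0 of all genes, with 1317 genes at an unadjusted p under 0.05. Leaving out any 1 Tnonmet library lowered the share of all genes called as well, so these losses were not particular to guidance genes. Without both Tmet libraries 13 members rose and 5 fell, where 8.94% of all genes tested rose and 6.82% fell. By DESeq2 8 members rose and 2 fell, beside 4.14% and 2.67% of all genes. The Tmet duplicates differed most, with a median ratio of the higher to the lower library of 1.34 over members against 1.12 to 1.17 in the other groups.

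The triple knockdown was also set against shNkx2-1, from which it differs by the shRNAs against Foxa2 and Cdx2. Against shNkx2-1, 7 of the 48 tested members rose in the triple knockdown and 12 fell, or 14.6% and 25%, where 9.27% and 11.1% of all tested genes did (20.4% either way). Nrp2 rose again (log2 change 2.81 ± 0.18, adjusted p = 8.48e-05), as did Sema5a (log2 change 2.26 ± 0.26, adjusted p = 0.00115), Plxnd1 (log2 change 0.89 ± 0.15, adjusted p = 0.00483), Epha2, Sema4b, Sema4d and Unc5b. Sema3d (log2 change -6.14 ± 0.57, adjusted p = 0.000394), Ntn5 (log2 change -5.43 ± 0.43, adjusted p = 0.000192), Sema3a (log2 change -2.80 ± 0.15, adjusted p = 3.4e-05) and Sema4g (log2 change -3.36 ± 0.58, adjusted p = 0.00604) were among the falls, with Sema3d at -5.21 without triple knockdown replicate 2 and -10.90 without replicate 1, again against a library with 0 counts. Ephb3, which had risen in shNkx2-1, fell from there (log2 change -0.97 ± 0.14, adjusted p = 0.00248), and so did Plxnb1 (log2 change -2.56 ± 0.48, adjusted p = 0.00816). Slit2, Ntn4, Epha7, Sema3e, Sema4a and Sema6d made up the other falls, with log2 changes of -2.81 to -0.69. The count of rises was 4 without shNkx2-1 replicate 1 (4.43% of all genes tested rose there), 3 without triple knockdown replicate 2 (2.95%) and 11 without either Tmet library (18% to 18.1%). That of falls was 6 without triple knockdown replicate 1 (4.52% of all genes fell) and 18 without either Tmet library (18.4%). Left-out libraries ended the calls of Epha2 without triple knockdown replicate 2 (adjusted p up to 0.0679), Unc5b without shNkx2-1 replicate 1 or either triple knockdown library (adjusted p up to 0.0708), Sema4b without either shNkx2-1 library or either triple knockdown library (adjusted p up to 0.0877), Sema4d without shNkx2-1 replicate 1 or triple knockdown replicate 2 (adjusted p up to 0.0678) and Sema4g without either triple knockdown library (adjusted p up to 0.0629). Also ended were those of Epha7 without shNkx2-1 replicate 2 or either triple knockdown library (adjusted p up to 0.114), Ntn4 without triple knockdown replicate 1 (adjusted p up to 0.0586), Plxnb1 without shNkx2-1 replicate 2 or triple knockdown replicate 1 (adjusted p up to 0.0765), Sema4a without either shNkx2-1 library or triple knockdown replicate 1 (adjusted p up to 0.139) and Slit2 without shNkx2-1 replicate 2 or either triple knockdown library (adjusted p up to 0.116).

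Tmet differed from the triple knockdown in 35 of the 48 tested members. In Tmet 10 were higher and 25 lower, or 20.8% and 52.1%, against 24% and 24.1% of all tested genes (48.1% either way). All 7 tested plexins passed: Plxna3 (log2 change 1.54 ± 0.31, adjusted p = 0.00466) and Plxnb1 (log2 change 4.28 ± 0.48, adjusted p = 0.000246) were higher in Tmet, and Plxnd1 (log2 change -3.74 ± 0.16, adjusted p = 2.08e-06), Plxna2, Plxna4, Plxna1 and Plxnb2 lower. Of 8 tested Eph receptors 6 were lower in Tmet and none higher, with Epha7 (log2 change -5.49 ± 0.33, adjusted p = 8.41e-06), Ephb6 (log2 change -1.94 ± 0.43, adjusted p = 0.00752) and Epha4 (log2 change -1.92 ± 0.20, adjusted p = 0.000169) furthest apart. Among ligands, Sema3a (log2 change 3.51 ± 0.16, adjusted p = 2.08e-06) and Slit2 (log2 change 3.18 ± 0.15, adjusted p = 3.15e-06) were higher in Tmet, as were Sema5a (log2 change 3.01 ± 0.23, adjusted p = 3.76e-05) and Efnb2 (log2 change 0.67 ± 0.16, adjusted p = 0.0101). Sema3b (log2 change -3.11 ± 0.14, adjusted p = 2.32e-06), Sema3f (log2 change -3.84 ± 0.52, adjusted p = 0.000685), Sema4d (log2 change -3.06 ± 0.33, adjusted p = 0.000218) and Sema6b (log2 change -3.37 ± 0.30, adjusted p = 8.1e-05) were lower. Nrp1 did not pass (log2 change 0.37 ± 0.36, adjusted p = 0.431), and without Tmet replicate 2 it was called in the other direction (-0.46, adjusted p = 0.0359). Leaving out 1 library ended the calls of Epha2 without either triple knockdown library or Tmet replicate 1 (adjusted p up to 0.203), Efnb2 without either triple knockdown library (adjusted p up to 0.065), Efnb1 without triple knockdown replicate 1 (adjusted p up to 0.12), Efna2 without triple knockdown replicate 2 (adjusted p up to 0.0874) and Sema7a without either triple knockdown library (adjusted p up to 0.0663). It also ended those of Efna1 without either shControl library, either shNkx2-1 library or either triple knockdown library (adjusted p up to 0.146), Plxna1 without triple knockdown replicate 1 (adjusted p up to 0.0827), Plxnb2 without triple knockdown replicate 2 (adjusted p up to 0.0949) and Sema4a without triple knockdown replicate 2 (adjusted p up to 0.0661). Among calls that stayed, leaving out Tmet replicate 1 moved the log2 change of Sema3f to -3.15, of Ephb6 to -2.97, of Epha7 to -6.40, of Plxna3 to 0.999, of Sema7a to -3.43 and of Efna1 to -1.71. Leaving out Tmet replicate 2 moved that of Sema3f to -5.34, of Ephb6 to -1.33, of Sema7a to -1.43, of Efna1 to -0.55 and of Efnb2 to 0.39. The calls of Ephb2 and Efnb3 were lost in 7 of the 8 such fits (adjusted p up to 0.175 and 0.185), and by DESeq2.

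**Figure D5:**
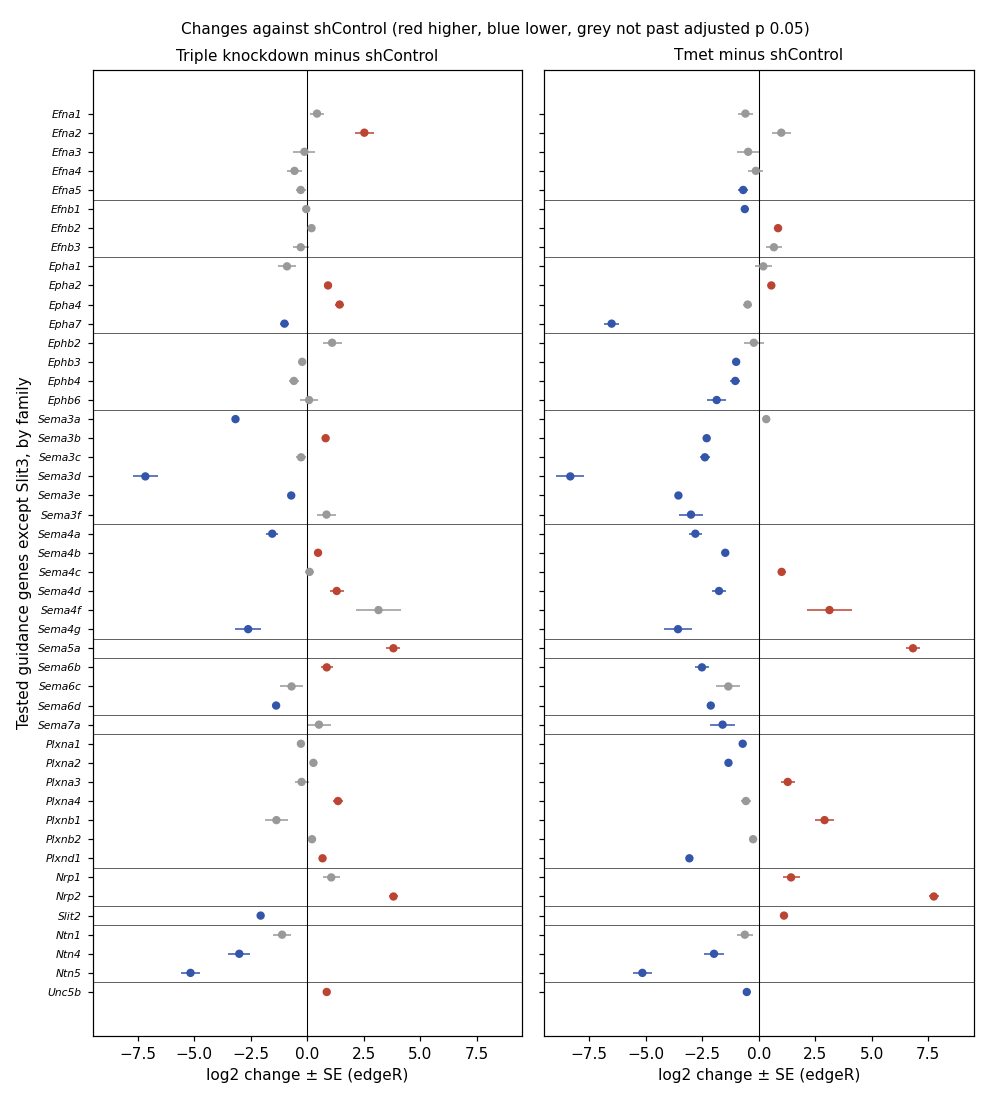
Log2 change ± SE of 47 tested guidance genes (Slit3, with 0 shControl counts, is left out) in the triple knockdown minus shControl (left) and Tmet minus shControl (right), by family; red is higher and blue lower past an adjusted p of 0.05, grey did not pass. Both panels use the same shControl libraries. Nrp2 and Sema5a lie furthest to the right in both among the called genes, and Sema3d furthest to the left.

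Genes that act with these receptors were counted from lists taken from general knowledge. Of 27 tested Eph and ephrin signalling partners 4 rose and 5 fell in the triple knockdown (median log2 change -0.08), where 12% and 12.4% of all tested genes did. In Tmet 12 rose and 11 fell (median 0.20), where 29.2% and 28.1% of all tested genes did. Nothing particular to a partner list is read from its counts. In the triple knockdown Sdcbp, the PDZ adaptor syntenin, fell (log2 change -1.57 ± 0.13, adjusted p = 0.000181), and Rgs3 (log2 change 2.13 ± 0.29, adjusted p = 0.00186), the kinase gene Src (log2 change 0.93 ± 0.12, adjusted p = 0.00127) and Rasa1, a Ras GTPase-activating protein (log2 change 0.63 ± 0.11, adjusted p = 0.00591), rose. In Tmet the adaptor gene Grb7 (log2 change -7.68 ± 0.22, adjusted p = 2.7e-07) and Chn2, a Rac GTPase-activating protein (log2 change -2.75 ± 0.13, adjusted p = 1.93e-06), fell. Tiam1, a Rac exchange factor (log2 change 7.22 ± 0.36, adjusted p = 2.73e-06), and Rasa1 (log2 change 2.13 ± 0.12, adjusted p = 4.13e-06) rose there. Grb7 in Tmet (0.164 and 0.202 CPM) and Tiam1 with shControl (0.0667 and 0.155 CPM) lay near or under the floor of 3 counts. The sizes of the Grb7 and Tiam1 changes are therefore uncertain.

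Of 26 tested plexin and neuropilin partners 5 rose and 6 fell under the triple knockdown (median 0.08), and 8 rose and 9 fell in Tmet (median -0.11), beside 12% and 12.4% of all tested genes in the first comparison and 29.2% and 28.1% in the second. Mical2, of a family of actin-oxidising enzymes, fell in the triple knockdown (log2 change -1.39 ± 0.10, adjusted p = 9.3e-05) and in Tmet (log2 change -2.25 ± 0.10, adjusted p = 1.43e-06). Among Rnd GTPases that bind plexins, Rnd1 rose (log2 change 2.44 ± 0.29, adjusted p = 0.000988) and Rnd3 fell (log2 change -0.89 ± 0.14, adjusted p = 0.00326) in the triple knockdown. Rnd2, the remaining member of that group, fell there too (log2 change -1.41 ± 0.33, adjusted p = 0.0179). The pseudokinase gene Ptk7, a plexin partner, rose there (log2 change 1.53 ± 0.29, adjusted p = 0.00694) and in Tmet (log2 change 4.79 ± 0.29, adjusted p = 6.66e-06). In Tmet Dpysl3, of the collapsin response mediator family, rose (log2 change 3.33 ± 0.14, adjusted p = 1.35e-06), and the receptor kinase gene Erbb2 fell (log2 change -1.60 ± 0.10, adjusted p = 7.57e-06).

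Of 23 tested Slit, Robo, netrin and repulsive guidance partners 6 rose and 8 fell under the triple knockdown (median -0.22), and 8 rose and 13 fell in Tmet (median -0.37), beside 12% and 12.4% of all tested genes in the first comparison and 29.2% and 28.1% in the second. Gpc1, a glypican that binds Slit2, rose in the triple knockdown (log2 change 1.86 ± 0.12, adjusted p = 7.56e-05) and in Tmet (log2 change 1.77 ± 0.12, adjusted p = 1.37e-05). Adora2b, an adenosine receptor linked to netrin-1, fell in both (log2 change -5.32 ± 0.46, adjusted p = 0.000235 and -8.07 ± 0.60, adjusted p = 2e-05). It measured 9.74 and 8.26 CPM with shControl, 0.121 and 0.321 under the triple knockdown, and 0 and 0.0504 for Tmet. Both Tmet libraries and triple knockdown replicate 1 lay under the floor of 3 counts, so the sizes of these Adora2b changes are uncertain. In the triple knockdown the actin-binding Ablim1 rose (log2 change 1.74 ± 0.17, adjusted p = 0.000392) and Rgma, a ligand of neogenin, fell (log2 change -2.56 ± 0.30, adjusted p = 0.000961). In Tmet the actin regulator Enah rose (log2 change 4.66 ± 0.19, adjusted p = 1.04e-06) and Flrt3, a partner of Unc5 and Robo receptors, fell (log2 change -3.92 ± 0.21, adjusted p = 3.46e-06). Over all tested genes the median log2 changes were 0.00 in the triple knockdown and 0.02 in Tmet.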

How the data were processed

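Single-end 45-base reads of TruSeq libraries of polyadenylated RNA were turned into estimated counts per gene by the authors and deposited as 1 table. RSEM 1.2.12, Bowtie 1.0.1 and the mm9 build are named in the submitters' processing notes; no source used here gives the strand setting. Deposited expected counts (34.7% to 38% of all values per library not whole) were rounded. Library totals were 14496995 to 21044835 and set a floor of 3 counts at 0.151 to 0.2 CPM. In R 4.3.3 with edgeR 4.0.16, genes were filtered (filterByExpr, minimum count 10, minimum total 15), scaled by TMM and fitted over all 8 libraries with 4 group means and no covariate (residual degrees of freedom 4). The quasi-likelihood test gave 5 contrasts with Benjamini-Hochberg adjustment over 13318 genes; SE is the log2 change divided by the root of its F value. The procedure was also run on counts simulated from the mean levels and fitted spread of these libraries, with changes planted in the triple knockdown alone. That run takes the spread of the duplicates as given, so it cannot show whether possibly technical duplicates give valid p-values, and it did not cover Tmet. Exact intervals and floors stand for counting error alone.

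Groups came from the sample labels, and the 2 libraries of every group differed beyond sampling noise. Per-library values are given for members past the threshold in at least 1 contrast with a mean of at least 10 CPM in their highest group, and changes from each partner list for up to 4 past-threshold genes with the smallest p in each of 2 contrasts. Values of Efna2, Ntn1, Ntn5, Slit3 and Rnd2, which that rule leaves out, were chosen after their values were seen. Members and lists were chosen with earlier results of these data known. Alternatives were DESeq2 1.42.0, its size factors in edgeR, no filter, a replicate block, the 4 libraries compared alone and leaving out each library. The result of 1 partner list is not reported here.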

Additional observations from a re-analysis of the deposited data

How the results depend on the processing

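Of 240 member changes, 170 passed in at least 1 setting and 70 in none, 23 of these with a sign that differed somewhere. With DESeq2's size factors in edgeR all 170 kept their direction and side of the threshold. For shNkx2-1 against shControl, members higher, members lower and all genes called were 3, 1 and 473. They were 8, 2 and 908 by DESeq2, 11, 4 and 1779 with the 4 libraries compared alone, and 13, 5 and 2006 without both Tmet libraries, a setting chosen after seeing the data. Without the filter 7 members were higher. For the triple knockdown against shControl, 17 members were lower and 5607 genes called with the 4 libraries alone, and 16 and 5424 without both Tmet libraries. Against shNkx2-1, 4518 genes were called with the 4 libraries alone, and 11 members were higher and 4958 genes called without both Tmet libraries. Deviations of same-numbered libraries correlated at 0.149 to 0.227 between Tnonmet groups and at -0.161 to -0.0418 with Tmet; no label ties the numbers, and 2 numbers a group are too few to establish pairing from the data. A replicate block gave 1 higher member and 294 genes for shNkx2-1 against shControl, and adjusted p rose past the threshold for Ephb3 (0.0546) and Sema3b (0.0642) there, Sema6b (0.0708) in the triple knockdown against shControl, and Efnb3 (0.0675) and Ephb2 (0.0504) in Tmet against the triple knockdown. Swapping the Tmet numbers in the block gave 11 higher, 26 lower and 7021 genes for Tmet against the triple knockdown. Leaving out 1 library (a lone remaining library is assumed to vary like the other groups) gave 0 to 13 higher, 0 to 5 lower and 0 to 1998 genes for shNkx2-1 against shControl; 8 to 17, 8 to 16 and 1248 to 5459 for the triple knockdown against shControl; 10 to 13, 22 to 29 and 5534 to 8882 for Tmet against shControl; 3 to 11, 6 to 18 and 1024 to 4994 for the triple knockdown against shNkx2-1; and 8 to 11, 18 to 28 and 3962 to 7901 for Tmet against the triple knockdown. By edgeR's test the 0 genes came without shControl replicate 1, with 1317 at an unadjusted p under 0.05. Leaving out 1 Tmet library turned the sign of 4 log2 changes not called in the fit of all libraries, whose ranges were -0.82 to 0.33 (Efna4, Tmet against shControl), -0.25 to 0.90 (Efna4, against the triple knockdown), -0.46 to 0.89 (Nrp1, against the triple knockdown) and -2.08 to 0.069 (Sema6c, likewise). The cause was not tested. Genes under 0.2 CPM were not detectable beyond the floor.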
